A study of Mus musculus with 8 samples.

Results

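Quadriceps muscle from 2 mouse models of muscular dystrophy was compared, as 1 dystrophic side, with quadriceps of wild-type (WT) mice. The dystrophic side held 5 RNA pools, 3 from mdx and 2 from dy2J/dy2J (dy2J) mice, and it was set against 3 WT pools, which together are all 8 libraries of the series. The mdx mice (labelled C57BL/10ScSn-Dmdmdx/J) carry a mutation of Dmd, the gene of dystrophin, and model Duchenne muscular dystrophy. The dy2J mice (labelled C57BL/6J Lama2dy-2J) carry a mutation of Lama2, the gene of the laminin alpha-2 chain, and model the congenital dystrophy caused by its loss. The WT mice were C57BL/10ScSnJ. All 40 mice (15 mdx, 11 dy2J and 14 WT) were male and 8 weeks old, and the labels name no treatment. Total RNA of 4 to 6 mice was mixed in each mdx or WT pool and of 5 to 6 mice in each dy2J pool. Strain and genotype cannot be told apart in the dy2J pools, whereas mdx and WT mice share the C57BL/10 background.

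Dystrophin and laminin alpha-2 stand at opposite ends of 1 chain of proteins. Dystrophin holds the actin cytoskeleton inside the muscle fibre to the dystroglycan complex of its membrane, and laminin alpha-2 holds that complex to the basement membrane outside. Where either end is missing or altered, fibres are damaged. The damaged fibres are cleared by macrophages and replaced from satellite cells, the stem cells of muscle, while connective tissue builds up between them. The comparison asks which transcripts changed in the same way in both models.

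Levels are given in FPKM, that is, read fragments relative to transcript length and library size, and every log2 change is a difference of log2(FPKM + 1), which understates the change of genes at low FPKM. The mean of the mdx pools and the mean of the dy2J pools had equal weight against the mean of the WT pools. A gene was called at an adjusted p under 0.05 (limma, Benjamini-Hochberg over all genes tested, two-sided), and "rose" and "fell" are used for called genes. A call was counted as having no overlap where all 5 dystrophic pools lay above, or all below, all 3 WT pools. The number of reads behind the values is unknown. The pools hold mixed RNA, so p-values rest on how pools vary, not on how mice vary. In RNA of whole muscle, fewer cells of a type and less RNA per cell cannot be told apart.

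Pools of 1 genotype resembled each other most, with Pearson correlations across genes of 0.979 to 0.992, against 0.956 to 0.972 between mdx and dy2J pools and 0.915 to 0.965 between dystrophic and WT pools. The first principal component (58.3% of the variance) placed the mdx pools at 21.3 to 42.4, the dy2J pools at 5.46 and 13.3 and the WT pools at -40.7 to -32.1. The skeletal muscle label fits the markers of the fibre: Ckm, the muscle creatine kinase, was listed at 8037, 5236 and 7502 FPKM in mdx pools and 5553 and 5995 in dy2J pools, against 10791, 10800.0 and 9982 in WT pools. An exact 0 beside clear values in other libraries was treated as a failed estimate, and 111 genes with one were left out of the tests, 72 with it in 1 library and 39 in 2 to 6. Acta1, the main skeletal actin, is listed at 0 in WT 1, and Myh4, the main myosin of fast fibres, has a 0 in each WT pool and in mdx 1. WT 1 held 66 of these values, and 50 of them lie in a stretch of chromosome 8 (119910360 to 124345724, GRCm38). All 178 genes of that stretch are at 0 in WT 1. Of 12719 genes tested, 9 more lie there, whose 0 in WT 1 the rule for failed estimates did not take out. The counts of calls include 6 of these 9, and none of the 9 belongs to a gene list or is named here.

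In both models together 2890 genes were called higher (22.7% of the genes tested) and 1835 lower (14.4%). Of these, 2447 higher calls (19.2% of all genes) and 1501 lower calls (11.8%) had no overlap between dystrophic and WT pools. In the other 777 calls dystrophic and WT pools overlapped, and 71 of all calls had the models on opposite sides of WT. With quantile normalization the split was 2178 higher and 2855 lower (43.3% of calls higher, against 61.2%), so the balance of rises and falls over all genes rests on the scaling. Among the calls with no overlap, 256 rises and 44 falls reached a log2 change of 1 in each model. The median log2 change over all genes was 0.04, and over rises with no overlap it was 0.71 in mdx and 0.52 in dy2J. The falls with no overlap had medians of -0.52 in mdx and -0.48 in dy2J. The mdx change was the larger one in 1796 of the 2447 rises and in 820 of the 1501 falls. Over all genes the median of dy2J minus mdx was -0.08 as deposited and -0.002 with quantile normalization. The counts of the larger change were not repeated under other scalings. Each model alone called 4801 genes in mdx (37.7%) and 2771 in dy2J (21.8%), and both comparisons use the same WT pools. The models differed from each other in 988 genes (7.77%), and 384 of the 3948 calls with no overlap were among them. Leaving out dy2J 1 gave 3127 pooled calls, 640 calls in dy2J and 156 differences between the models, and leaving out dy2J 2 gave 3865, 1290 and 254. The dy2J calls numbered 1694 without WT 1 and 1750 without WT 2.

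The genes that carry the mutations come first as a check of the labels. Dmd (ENSMUSG00000045103, chromosome X, 82948870 to 85206141, GRCm38) averaged 4.58 ± 0.808 FPKM in mdx (SD, n = 3) and 25.4 ± 3.76 in dy2J (n = 2), against 29.8 ± 2.01 in WT (n = 3). The mdx pools alone lay far below WT, with log2 changes of -2.47 in mdx and -0.23 in dy2J, and the pooled change of -1.35 ± 0.12 (SE; adjusted p = 0.00015) rests on them. Lama2 (ENSMUSG00000019899, chromosome 10, 26980036 to 27619758), at 9.32, 10.9 and 12.7 FPKM in mdx pools and 5.31 and 5.07 in dy2J pools, against 9.42, 9.34 and 9.43 in WT pools, was not called in the pooled comparison (-0.28 ± 0.101, adjusted p = 0.058). Its dy2J pools lay well below the WT range, mdx 1 at its lower edge and the other mdx pools above it. It was called lower under 4 of the alternatives, among them quantile normalization (adjusted p down to 0.0089). Neither mutated gene is among the calls with no overlap, and the Dmd call was lost with equal weight per pool (adjusted p = 0.074). That fit takes the 5 dystrophic pools as 1 group, so differences between the models add to its spread. Wherever equal weight per pool is named, a lost call can reflect this spread as well as the weights.

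The 15 largest rises shared by both models held contractile genes of immature and slow fibres, matrix proteins and immune genes. Tnni1, the slow troponin I that developing fibres also make, was listed at 54.1, 79.4 and 72.8 FPKM in mdx pools and 93.8 and 136 in dy2J pools, against 1.27, 2.05 and 1.17 in WT pools. Its log2 change was 5.17 ± 0.18 (SE; adjusted p = 9.4e-07), and no dystrophic pool came near the WT range. Sln, which encodes sarcolipin, an inhibitor of the calcium pump SERCA, stood at 86.0, 63.7 and 125 FPKM in mdx pools and 244 and 286 in dy2J pools, against 1.44, 3.17 and 3.23 in WT pools (5.46 ± 0.24, adjusted p = 3.8e-06). Postn, or periostin, a matrix protein of wound repair, stood at 114, 149 and 108 FPKM in mdx pools and 224 and 171 in dy2J pools, against 7.18, 9.26 and 13.1 in WT pools (3.88 ± 0.19, adjusted p = 5e-06). Both genes were higher in the dy2J than in the mdx pools. Spp1, or osteopontin, a matrix protein and cytokine of macrophages and regenerating fibres, stood at 57.7, 398 and 58.0 FPKM in mdx pools and 23.7 and 12.6 in dy2J pools, against 0.700, 1.77 and 0.879 in WT pools. Its 5 dystrophic values spread widely, with mdx 2 far above the rest, and all lay above WT (4.45 ± 0.58, adjusted p = 0.0008). Timp1, an inhibitor of matrix metalloproteinases, stood at 61.6, 57.5 and 34.5 FPKM in mdx pools and 43.5 and 38.4 in dy2J pools, against 1.27, 8.04 and 4.14 in WT pools (3.28 ± 0.38, adjusted p = 0.00048). Ccl8, a chemokine that draws monocytes, stood at 51.5, 52.6 and 55.9 FPKM in mdx pools and 57.8 and 38.2 in dy2J pools, against 4.89, 6.02 and 7.65 in WT pools (2.85 ± 0.16, adjusted p = 1.1e-05). The Ccl8 values of the 2 models lay in 1 range, well apart from WT.

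The other genes among the 15 largest shared rises held further contractile genes, 1 gene of cell fusion, an adhesion molecule, an immune adaptor and a small GTPase. Tmem8c, or myomaker, a membrane protein that lets myoblasts fuse, stood at 23.6, 41.9 and 46.1 FPKM in mdx pools and 8.99 and 7.97 in dy2J pools, against 0.279, 0.516 and 0.593 in WT pools (3.68 ± 0.20, adjusted p = 9.4e-06). It was near 0 in WT and present in every dystrophic pool, at a higher level in mdx. Myh3, the embryonic myosin heavy chain, stood at 15.6, 45.7 and 32.0 FPKM in mdx pools and 12.7 and 7.86 in dy2J pools, against 0.168, 0.353 and 0.330 in WT pools. Myl4, the embryonic and atrial light chain, rose (5.10 in mdx, 3.38 in dy2J), and so did Tnnt2, the cardiac troponin T that embryonic skeletal muscle makes (4.30 in mdx, 2.52 in dy2J), Tnnc1, the slow and cardiac troponin C (3.12 in mdx, 5.60 in dy2J), and Tnnt1, the slow troponin T (2.71 in mdx, 5.08 in dy2J). Ncam1, an adhesion molecule of regenerating and denervated fibres, rose (3.03 in mdx, 2.60 in dy2J). Lcp2, an adaptor of immune receptor signalling, rose (2.47 in mdx, 2.40 in dy2J). Rrad, a small GTPase that binds calcium channels, stood at 151, 31.5 and 17.4 FPKM in mdx pools and 59.7 and 61.9 in dy2J pools, against 0.988, 17.3 and 5.70 in WT pools. WT 2 reached the level of mdx 3 in Rrad, although no dystrophic pool lay below it (3.08 ± 0.77, adjusted p = 0.013). The Rrad call was lost without WT 1 (adjusted p = 0.053) and with no expression minimum (adjusted p = 0.055). The pooled changes of the other 7 genes named after Tmem8c had adjusted p = 8.9e-07 to 0.0032.

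**Figure D1:**
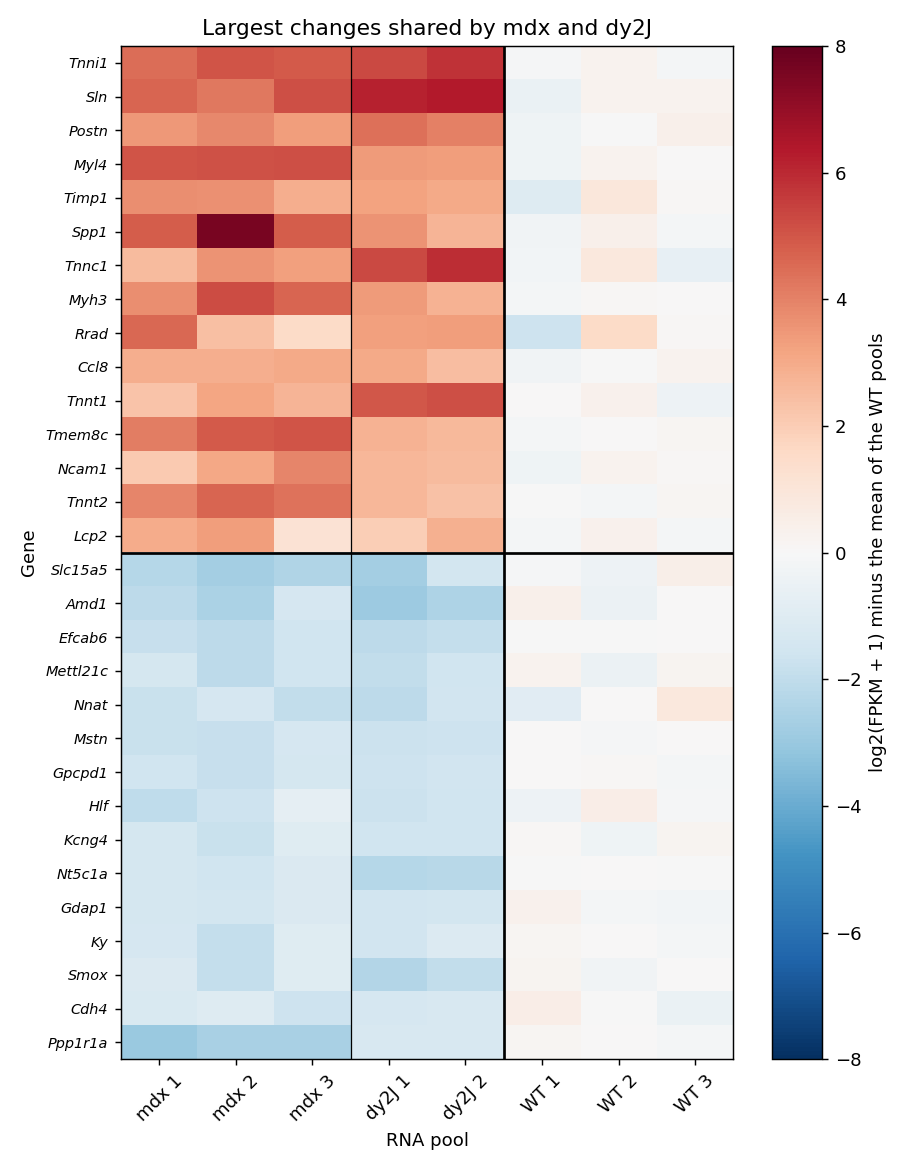
The 15 largest rises (top) and 15 largest falls (bottom) shared by both models, as log2(FPKM + 1) minus the mean of the WT pools (colour), in each RNA pool (columns: mdx 1 to 3, dy2J 1 and 2, WT 1 to 3). The 5 dystrophic columns are red for every rise and blue for every fall, with the strongest red in Spp1 of mdx 2 and in Sln of dy2J.

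Myog, the transcription factor myogenin that drives myoblasts into fibres, rose in both models as well. It stood at 18.99, 25.4 and 26.6 FPKM in mdx pools and 15.4 and 14.2 in dy2J pools, against 2.09, 2.72 and 2.12 in WT pools (2.57 ± 0.13, adjusted p = 5e-06), and the mdx change was the larger (2.89 in mdx and 2.26 in dy2J). The promoters of 3 named genes, picked by hand and not by a rule, are shown, 2 that rose (Myog and Tnnt2) and 1 that fell (Mstn). They run from 250 bases before to 50 after the start in RefSeq (GRCm38.p6, plus strand) at chr1:134289754-134290053, chr1:135836084-135836383 and chr1:53061390-53061689. Capitals mark the E-box CANNTG, the motif that myogenin and its relatives bind, and the TATA box TATAAA.
Myog: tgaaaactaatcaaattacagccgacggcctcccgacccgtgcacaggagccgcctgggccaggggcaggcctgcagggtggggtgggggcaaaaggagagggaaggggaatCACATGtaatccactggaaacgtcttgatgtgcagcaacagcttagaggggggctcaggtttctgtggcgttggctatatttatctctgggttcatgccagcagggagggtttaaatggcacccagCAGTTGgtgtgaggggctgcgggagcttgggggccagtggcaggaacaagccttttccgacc
Tnnt2: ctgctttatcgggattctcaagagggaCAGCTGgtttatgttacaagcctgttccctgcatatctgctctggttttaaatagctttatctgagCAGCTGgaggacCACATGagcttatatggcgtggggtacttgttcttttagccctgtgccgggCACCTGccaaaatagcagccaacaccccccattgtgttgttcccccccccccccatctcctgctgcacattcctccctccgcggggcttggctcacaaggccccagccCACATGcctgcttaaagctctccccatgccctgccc
Mstn: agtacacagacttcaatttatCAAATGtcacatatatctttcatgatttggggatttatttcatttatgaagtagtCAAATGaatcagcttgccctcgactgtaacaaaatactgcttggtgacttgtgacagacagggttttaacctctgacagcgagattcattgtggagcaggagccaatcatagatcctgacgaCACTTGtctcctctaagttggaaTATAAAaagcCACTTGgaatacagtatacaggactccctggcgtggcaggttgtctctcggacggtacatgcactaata
Searched on both strands, CANNTG stood at 2 places in Myog, 5 in Tnnt2 and 4 in Mstn, and 63.2% of the 9175 promoters of tested genes held at least 1. Tnnt2 and Mstn are thus not typical of the largest shared rises and falls. Among the others with a promoter, Tnni1 held 4, Myl4, Postn, Timp1 and Nnat held 0, and the rest held 1 or 2. The narrower E-box CAGCTG, a subset of CANNTG, occurred 2 times in Tnnt2 and was held by 18.3% of the 1816 promoters of genes that rose with no overlap, 16.2% of the 1072 of genes that fell and 15.2% of all. TATAAA stood 29 bases before the start of Mstn and was held by 9.36% of the promoters of rises, 6.44% of falls and 7.36% of all. A pair of GAAA with 2 bases of any kind between, which interferon regulatory factors bind, was held by 4.63% of promoters of rises, 1.4% of falls and 3.1% of all. GAGGAAGT, a motif of ETS factors such as the macrophage factor PU.1, was held by 4.79% of promoters of rises, 2.71% of falls and 3.06% of all. TGANTCA, the motif of AP-1, was held by 6.66% of rises, 4.66% of falls and 4.94% of all. These shares describe the letters in these windows, and no binding was measured.

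The 15 largest shared falls held genes of mature fibres, of polyamine metabolism and of the clock. Mstn, or myostatin, the muscle factor that limits muscle growth, was listed at 11.5, 11.0 and 16.005 FPKM in mdx pools and 12.2 and 12.5 in dy2J pools, against 43.2, 39.1 and 43.4 in WT pools. All dystrophic values lay in a narrow range far below the WT values, and the log2 change was -1.66 ± 0.12 (SE; adjusted p = 6.5e-05). Amd1, the decarboxylase that supplies polyamine synthesis, stood at 36.9, 27.9 and 63.9 FPKM in mdx pools and 21.04 and 28.3 in dy2J pools, against 215, 119 and 169 in WT pools (-2.34 ± 0.27, adjusted p = 0.00046). Smox, the oxidase that turns spermine into spermidine, stood at 127, 74.6 and 144 FPKM in mdx pools and 53.8 and 69.5 in dy2J pools, against 331, 229 and 287 in WT pools (-1.75 ± 0.22, adjusted p = 0.00064). In both genes the lowest values were those of the dy2J pools and of mdx 2. Mettl21c, a methyltransferase of muscle fibres, stood at 49.2, 29.6 and 42.3 FPKM in mdx pools and 32.8 and 43.6 in dy2J pools, against 158, 93.7 and 156 in WT pools (-1.75 ± 0.22, adjusted p = 0.00064). Gpcpd1, which breaks down glycerophosphocholine, stood at 54.4, 46.4 and 62.9 FPKM in mdx pools and 53.2 and 58.0 in dy2J pools, against 171, 180.1 and 152 in WT pools (-1.59 ± 0.12, adjusted p = 6.5e-05). The values of the 2 models lay in 1 range. Ky, a protein of the Z-disc whose loss causes kyphoscoliosis in mice, stood at 27.1, 18.01 and 34.8 FPKM in mdx pools and 23.4 and 31.3 in dy2J pools, against 78.5, 69.5 and 60.7 in WT pools (-1.36 ± 0.20, adjusted p = 0.0012).

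The other genes among the 15 largest shared falls were expressed at lower levels. Ppp1r1a, an inhibitor of protein phosphatase 1, was listed at 2.43, 3.51 and 3.39 FPKM in mdx pools and 10.1 and 10.1 in dy2J pools, against 29.3, 26.0 and 22.999 in WT pools, so that the mdx pools were lower than the dy2J pools and both were below WT. Nt5c1a, which removes the phosphate of AMP, stood at 5.66, 4.95 and 7.13 FPKM in mdx pools and 2.60 and 2.89 in dy2J pools, against 16.3, 17.4 and 16.5 in WT pools, with dy2J below mdx. Efcab6, a protein with calcium-binding EF hands, stood at 1.49, 1.08 and 2.04 FPKM in mdx pools and 1.09 and 1.40 in dy2J pools, against 7.89, 7.84 and 8.35 in WT pools. Kcng4, a modifying subunit of potassium channels, fell (-1.38 in mdx, -1.60 in dy2J), and so did Gdap1, a protein of the outer mitochondrial membrane (-1.34 in mdx, -1.505 in dy2J), Slc15a5, of the peptide transporter family (-2.48 in mdx, -2.09 in dy2J), Nnat, or neuronatin, an imprinted membrane protein (-1.70 in mdx, -1.80 in dy2J), Cdh4, a cadherin (-1.30 in mdx, -1.31 in dy2J), and Hlf, a transcription factor of clock output (-1.48 in mdx, -1.66 in dy2J). Their pooled changes had adjusted p = 1.9e-05 to 0.0046.

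Genes of regenerating fibres moved together: 16 of 20 tested members rose and 0 fell (median log2 change 2.38), against 22.7% called higher and a median of 0.04 over all genes. Medians of the list were 2.72 in mdx and 1.86 in dy2J, and the models differed in 10 of its members. Chrng, the acetylcholine receptor subunit of fetal muscle, was listed at 4.66, 14.6 and 17.4 FPKM in mdx pools and 2.999 and 2.14 in dy2J pools, against 0, 0.266 and 0.157 in WT pools. It rose (2.51 ± 0.34, adjusted p = 0.00087), as did Chrnd, the delta subunit (1.69 in mdx, 1.34 in dy2J). Cdh15, a cadherin of muscle cells, is among the genes left out for a failed 0. The list of satellite cell genes and myogenic regulators did not move as one, with 7 higher and 2 lower of 19 and a median of 0.01 (0.35 in mdx and -0.21 in dy2J, and -0.03 over both with quantile normalization). Pax7, which marks satellite cells, stood at 1.02 to 1.13 FPKM in mdx and 0.260 to 0.268 in dy2J, against 0.573 to 0.745 in WT. Myf5 stood at 1.95 to 2.19 in mdx and 0.689 to 0.729 in dy2J, against 0.8775 to 1.10 in WT. Both markers were thus above WT in mdx and below it in dy2J, at low levels. Calcr stood at 0.265 to 0.407 in mdx and 0.113 to 0.333 in dy2J, against 0.379 to 0.436 in WT. Besides Myog, Sdc4, a heparan sulfate proteoglycan of satellite cells and other cells, rose (0.57 in mdx, 0.88 in dy2J), and Eya1, a co-activator of fast fibre genes, fell (-0.66 in mdx, -0.60 in dy2J). The Eya1 call was lost without WT 1 or without dy2J 1 (adjusted p up to 0.087). Of junction and denervation genes 8 of 21 rose and 2 fell (median 0.18).

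Contractile genes divided by fibre type. Of fast fibre genes 0 of 14 tested members rose and 9 fell (median log2 change -0.60), with medians of -0.45 in mdx and -0.83 in dy2J. Tnnt3, the fast troponin T, stood at 6805, 5026 and 5863 FPKM in mdx pools and 4853 and 4745 in dy2J pools, against 8970.0, 8488 and 8415 in WT pools (-0.70 ± 0.14, adjusted p = 0.0045). Tnni2, the fast troponin I (-0.62 in mdx, -0.76 in dy2J), and Mylk2, the kinase of the fast light chain (-0.56 in mdx, -0.98 in dy2J), fell too (adjusted p = 0.0015 to 0.0057). Fast fibre genes are among the most abundant transcripts here, and with quantile normalization 1 rose and 6 fell (median -0.22) and Tnni2 was no longer called (adjusted p = 0.23). With no expression minimum neither Tnnt3 nor Tnni2 was called (adjusted p = 0.17 and 0.12). Of slow fibre genes 12 of 13 tested members rose and 0 fell (median log2 change 1.75), and 7 of the 12 rises had no overlap. The models differed in 9 of the 13. The slow myosin Myh7 stood at 0.260, 0.170 and 0.481 FPKM in mdx pools and 54.7 and 87.2 in dy2J pools, against 0.576, 1.06 and 0.197 in WT pools. The slow light chain Myl2 stood at 5.87, 3.75 and 3.12 FPKM in mdx pools and 285 and 430.0 in dy2J pools, against 10.4, 8.96 and 9.71 in WT pools. The other slow light chain, Myl3, stood at 4.51, 1.52 and 4.30 FPKM in mdx pools and 94.1 and 155 in dy2J pools, against 12.1, 7.07 and 12.3 in WT pools. These 3 pooled calls rest on the dy2J pools, since the mdx pools lay within or below the WT range, whereas the slow troponins Tnni1, Tnnc1 and Tnnt1 rose with no overlap in both models. With equal weight per pool the 3 were not called (adjusted p = 0.34, 0.55 and 0.79), and Myl3 was also lost without WT 2 or dy2J 2.

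Genes of excitation and contraction were lower. In excitation-contraction coupling 0 of 21 tested members rose and 10 fell (median log2 change -0.33), and all 10 had no overlap. With quantile normalization the list had 2 higher and 12 lower. Camk2a, a calcium-dependent kinase, fell (-0.89 in mdx, -1.28 in dy2J), as did Ryr1, the calcium release channel of the sarcoplasmic reticulum (-0.83 in mdx, -0.93 in dy2J), and Stac3, which ties that channel to the voltage sensor (-0.83 in mdx, -0.77 in dy2J) (adjusted p = 0.00046 to 0.0014). Of ion channels and transporters 4 higher and 10 lower of 23 were called. Scn4a, the sodium channel of the fibre (-0.94 in mdx, -1.01 in dy2J), and Clcn1, its chloride channel (-0.83 in mdx, -1.17 in dy2J), fell, and Kcnn3, a calcium-activated potassium channel that denervated fibres make, rose (1.22 in mdx, 1.17 in dy2J). Genes that mark muscle as such had 0 higher and 7 lower of 10 called (median -0.62), among them Ckm, at a log2 change of -0.75 ± 0.17 (not called with no expression minimum, adjusted p = 0.20), and Neb, or nebulin (-0.69 in mdx, -0.65 in dy2J). Without WT 1, or without dy2J 1, that list had 4 lower, and with quantile normalization it had 2 higher and 6 lower. The Z-disc list was split, with 8 higher and 8 lower of 22: Ankrd1, a stretch-induced nuclear protein (2.48 in mdx, 1.35 in dy2J), Mustn1, a small protein of regenerating muscle (1.15 in mdx, 1.55 in dy2J), and Fhl2, a LIM protein (0.86 in mdx, 1.71 in dy2J), rose.

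The dystrophin complex itself did not move as one, with 7 higher and 4 lower of 25, near the shares of all genes, and a median of 0.02 (-0.01 with quantile normalization). Nos1, the neuronal nitric oxide synthase that dystrophin anchors, stood at 3.99, 3.69 and 5.97 FPKM in mdx pools and 7.61 and 8.73 in dy2J pools, against 11.8, 12.9 and 14.8 in WT pools (-0.999 ± 0.14, adjusted p = 0.0011). Sgcd, or delta-sarcoglycan, fell (-0.87 in mdx, -0.58 in dy2J). Lama4, a laminin chain of vessels and of immature basement membrane, stood at 17.1, 12.6 and 23.8 FPKM in mdx pools and 27.3 and 26.6 in dy2J pools, against 12.5, 12.3 and 8.84 in WT pools (0.90 ± 0.19, adjusted p = 0.0056). Its dystrophic pools were all higher than WT, in dy2J as in mdx.

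Macrophage genes were higher almost throughout: 31 of 33 tested members rose and 0 fell (median log2 change 1.74). Cd68, a lysosomal protein of macrophages, was listed at 46.2, 122 and 66.2 FPKM in mdx pools and 26.1 and 25.5 in dy2J pools, against 7.09, 8.71 and 9.88 in WT pools (2.22 ± 0.26, adjusted p = 0.00049). The mdx values were above the dy2J values and both were above WT. C1qa, a chain of the complement factor C1q that macrophages make, stood at 86.7, 137 and 104 FPKM in mdx pools and 70.9 and 53.4 in dy2J pools, against 19.7, 22.7 and 25.6 in WT pools (1.81 ± 0.16, adjusted p = 0.00017). Lgals3, or galectin 3, rose (3.97 in mdx, 2.11 in dy2J), and so did Ms4a7, a membrane protein of macrophages (3.35 in mdx, 2.29 in dy2J), and Ctss, a protease that cuts antigen (3.93 in mdx, 2.22 in dy2J) (adjusted p = 6.2e-05 to 0.00014). The models differed in 17 of the 33 members, and the list median was 2.201 in mdx and 1.34 in dy2J. The summed level of the list was 1388 to 2904 FPKM in mdx pools and 757 to 905 in dy2J pools, against 253 to 320.2 in WT pools. Genes of other leukocytes were mostly too low to test: 0 of 9 B cell genes and 2 of 19 T and NK cell genes reached the minimum of 1 FPKM in 2 libraries. Those 2 were Cd4, which macrophages express as well (0.81 in mdx, 0.42 in dy2J), and Il7r, a cytokine receptor (1.69 in mdx, 0.37 in dy2J), whose call was lost with equal weight per pool. The summed level of the 19 T and NK cell genes, Cd4 and Il7r included, was 8.14 to 12.0 FPKM in mdx pools and 4.48 to 7.42 in dy2J pools, against 1.98 to 2.99 in WT pools, and that of the 9 B cell genes was 1.82 to 3.01 FPKM in mdx pools and 1.93 to 2.19 in dy2J pools, against 0.872 to 1.58 in WT pools. Both sums were low, and in both all dystrophic pools lay above WT. The T cell marker Cd3e stood at 0.3158, 0.2987 and 0.2547 FPKM in mdx pools and 0.3122 and 0.2013 in dy2J pools, against 0.1039, 0.2345 and 0.0958 in WT pools, and Lck, a kinase of T cells, at 0.542, 0.462 and 0.512 in mdx pools and 0.326 and 0.247 in dy2J pools, against 0.125, 0.0746 and 0.237 in WT pools. Another T cell marker, Cd3g, reached 2.39 FPKM in dy2J 1 and at most 0.754 elsewhere. Of 8 tested neutrophil genes 1 rose, Lcn2, or lipocalin 2 (2.41 in mdx, 0.28 in dy2J), whose call was lost with equal weight per pool (adjusted p = 0.077), and without WT 2, mdx 3 or dy2J 1 there were 2, 3 and 2. S100a8 stood at 49.3, 22.7 and 5.42 FPKM in mdx pools and 1.76 and 35.7 in dy2J pools, against 1.25, 24.6 and 2.76 in WT pools, so the groups overlapped.

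Immune genes beyond cell markers were higher in the same pools. Of Toll-like, Fc and lectin receptors 24 of 26 tested members rose and 0 fell (median log2 change 1.37), all 24 with no overlap, among them the IgG receptors Fcgr2b (1.97 in mdx, 1.49 in dy2J) and Fcgr3 (2.12 in mdx, 1.46 in dy2J) and their signalling chain Fcer1g (2.59 in mdx, 1.62 in dy2J). Of genes of MHC class II and antigen presentation 11 of 11 tested members rose and 0 fell (median log2 change 1.21). H2-Ab1, a class II chain, was listed at 115, 109 and 118 FPKM in mdx pools and 110.5 and 87.2 in dy2J pools, against 29.2, 38.3 and 32.5 in WT pools (1.65 ± 0.12, adjusted p = 6.2e-05), and H2-Aa, its partner, rose (1.84 in mdx, 1.49 in dy2J). Of class I genes 12 higher and 0 lower of 16 were called (median 0.67), with H2-K1 (1.17 in mdx, 0.86 in dy2J) and the immunoproteasome subunit Psmb9 (1.18 in mdx, 0.81 in dy2J) among them. The interferon response had 19 higher and 1 lower of 26 (median 0.53), and the lower one was Gbp7, a guanylate-binding protein (-0.71 in mdx, -0.84 in dy2J). Its members Ifi27l2a (1.14 in mdx, 1.32 in dy2J), Isg15, a ubiquitin-like protein (1.05 in mdx, 1.12 in dy2J), and Bst2, which tethers budding viruses (1.48 in mdx, 1.07 in dy2J), rose (adjusted p = 0.00017 to 0.0041).

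Complement genes had 12 higher and 1 lower of 15 (median 0.89), including C3ar1, the receptor of a C3 fragment (2.995 in mdx, 1.39 in dy2J), and Cfb, a factor of the alternative pathway (1.72 in mdx, 1.57 in dy2J). The lower one was Cd59a, which shields cells from complement (-0.05 in mdx, -1.30 in dy2J), through its dy2J pools, and it was not called with equal weight per pool (adjusted p = 0.26). Chemokines and their receptors had 17 higher and 1 lower of 23, with Cxcl16 (2.31 in mdx, 1.82 in dy2J) and Ccl12 (1.98 in mdx, 1.72 in dy2J) beside Ccl8, and Ccl11, which draws eosinophils, was the lower one (-0.40 in mdx, -0.57 in dy2J). Interleukins, TNF family members and receptors had 13 higher and 3 lower of 23. Il4ra, the receptor chain for interleukins of type 2 immunity (1.29 in mdx, 0.96 in dy2J), its partner Il13ra1 (1.43 in mdx, 1.23 in dy2J) and the TNF receptor Tnfrsf1b (1.82 in mdx, 0.91 in dy2J) rose (adjusted p = 0.00078 to 0.0047). All 6 tested genes of the NADPH oxidase of phagocytes rose (median 1.35), with Ncf1 (1.70 in mdx, 0.92 in dy2J) as an example. Of lysosome genes 22 of 34 tested members rose and 2 fell (median log2 change 0.72), among them Lgmn, or legumain (2.53 in mdx, 1.57 in dy2J). The summed macrophage level moved with all these lists in the same 5 pools, and its part in them was not tested.

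**Figure D2:**
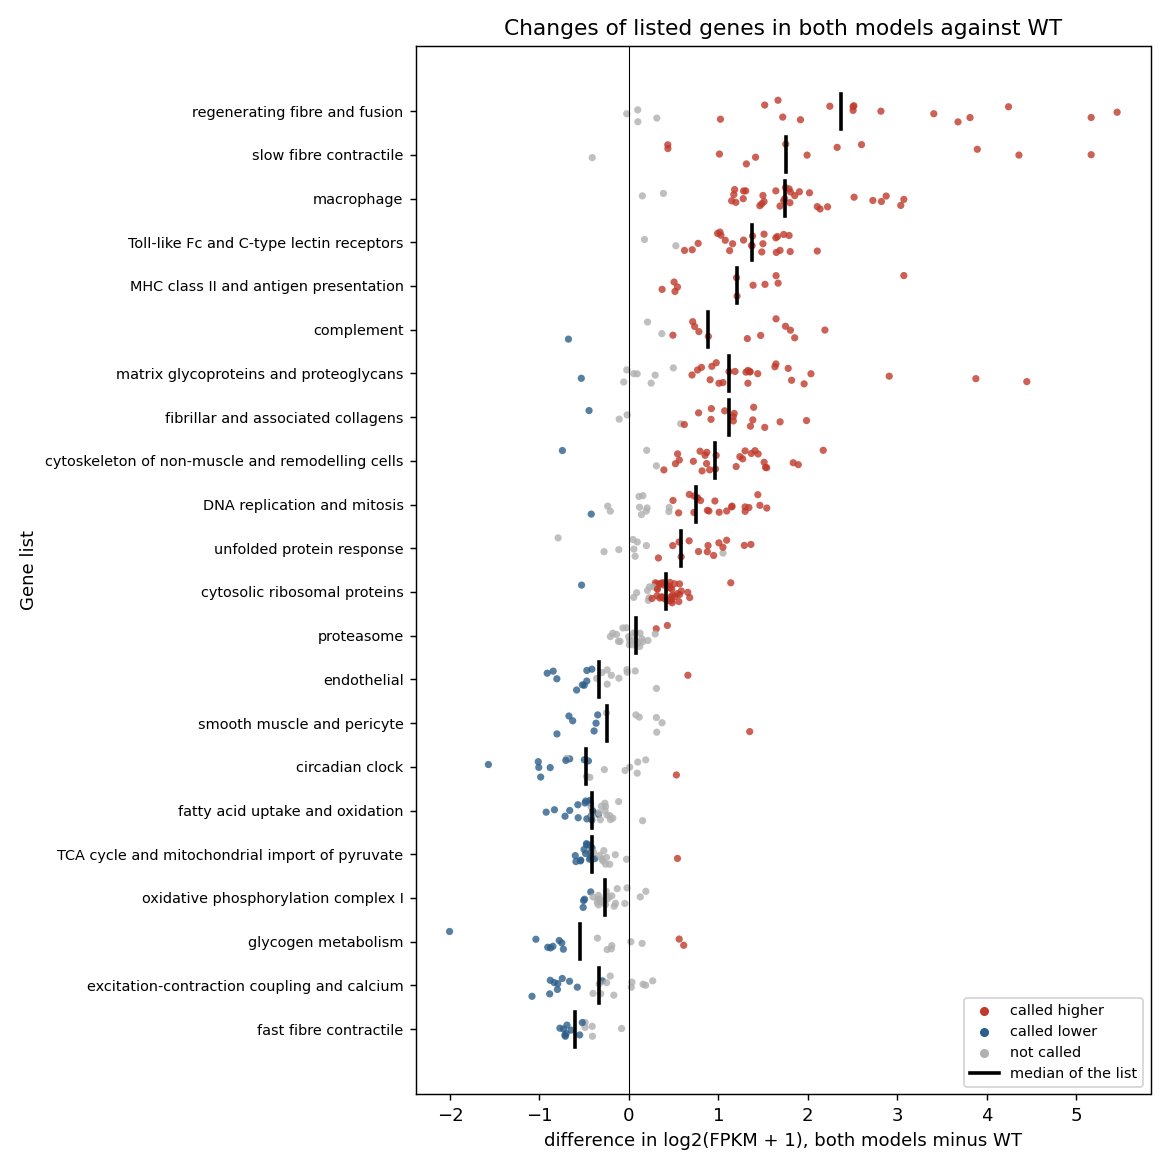
Log2 change of both models minus WT (x axis) for each tested member of 22 gene lists (rows), coloured by call, with the median of each list as a black line. Macrophage, matrix and regenerating fibre genes lie mostly right of 0, fast fibre, coupling and mitochondrial genes mostly left of it, and proteasome genes close to 0.

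Matrix genes rose in both models. Of fibrillar and associated collagens 14 of 18 tested members rose and 1 fell (median log2 change 1.12), with medians of 0.83 in mdx and 1.23 in dy2J. Col1a1, a chain of type I collagen, the main protein of scar tissue, was listed at 176, 226 and 207 FPKM in mdx pools and 309 and 132 in dy2J pools, against 70.2, 76.7 and 63.3 in WT pools (1.52 ± 0.24, adjusted p = 0.0016). The highest value was in dy2J 1, and even the lowest dystrophic pool was above WT. Col8a1 (1.56 in mdx, 2.42 in dy2J) rose as well, and so did Col14a1, which sits on collagen fibrils (1.497 in mdx, 1.88 in dy2J). Col24a1 was the 1 member that fell (0.23 in mdx, -1.12 in dy2J). The Col24a1 call rests on dy2J and was lost without WT 1, WT 2, dy2J 1 or dy2J 2 (adjusted p = 0.051 to 0.14) and with equal weight per pool (adjusted p = 0.57). Of glycoproteins and proteoglycans 25 of 33 tested members rose and 1 fell (median log2 change 1.12). Cthrc1, a secreted protein of repairing tissue, stood at 6.12, 7.94 and 4.22 FPKM in mdx pools and 31.5 and 7.58 in dy2J pools, against 0.319, 0.517 and 0.465 in WT pools (2.91 ± 0.36, adjusted p = 0.00065). It was below 1 FPKM in each WT pool and well above that in each dystrophic pool, with dy2J 1 the highest. The 1 member that fell was Efemp1, or fibulin 3 (-0.38 in mdx, -0.69 in dy2J). Of collagen processing genes 15 of 22 tested members rose and 0 fell (median log2 change 0.66), including the crosslinking enzymes Lox (0.96 in mdx, 1.01 in dy2J) and Loxl1 (1.23 in mdx, 1.56 in dy2J) (adjusted p = 7.3e-05 to 0.0053).

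Genes that remodel the matrix or answer to growth factors rose in part. Proteases and inhibitors had 19 higher and 4 lower of 31 (median 0.53), with Mmp3, a metalloproteinase (2.96 in mdx, 1.62 in dy2J), and Serpinb1a, an inhibitor of neutrophil proteases (2.24 in mdx, 2.24 in dy2J). Basement membrane genes had 6 higher and 1 lower of 16 (median 0.15), and without WT 1 there were 3 higher and 1 lower. The lower one was Col4a5, a chain of type IV collagen (-0.31 in mdx, -0.67 in dy2J). Among those higher was Sparc (0.54 in mdx, 0.58 in dy2J), a collagen-binding protein whose call was lost without any 1 of the WT pools (adjusted p up to 0.073). The TGF-beta, activin and BMP list was divided, with 11 higher and 8 lower of 29. Ltbp2, a latent TGF-beta binding protein of elastic fibres (1.09 in mdx, 1.24 in dy2J), and Fstl1, a secreted follistatin relative (0.91 in mdx, 1.27 in dy2J), rose. Quantile normalization turned that list to 9 higher and 10 lower. In the IGF system 5 of 11 rose and 0 fell, with Igf2, the fetal growth factor, at 94.6, 104 and 135 FPKM in mdx pools and 27.6 and 27.8 in dy2J pools, against 5.56, 6.56 and 7.66 in WT pools (2.90 ± 0.13, adjusted p = 5e-06). The Igf2 level of the mdx pools was well above that of the dy2J pools.

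Other stromal lists moved less evenly. Fibro-adipogenic progenitor and fibroblast genes had 10 higher and 0 lower of 17 (median 0.40), with Mfap5, a microfibril protein (0.96 in mdx, 1.92 in dy2J), and Fap, a surface protease (0.68 in mdx, 0.99 in dy2J). Their summed level was 1263 to 1393 FPKM in mdx pools and 1575 to 1923 in dy2J pools, against 1200.5 to 1230.5 in WT pools. Tendon and cartilage genes had 6 higher and 0 lower of 12, with Thbs4 (0.94 in mdx, 1.77 in dy2J), Tnc, or tenascin C (1.74 in mdx, 2.33 in dy2J), and Cilp (2.14 in mdx, 3.52 in dy2J). The summed level of the 15 listed tendon and cartilage genes was 292 to 439 FPKM in mdx pools and 371 to 764 in dy2J pools, against 180.3 to 271 in WT pools. The tendon marker Scx, a transcription factor, stood at 5.78, 7.0028 and 4.54 FPKM in mdx pools and 10.6 and 7.69 in dy2J pools, against 2.86, 2.35 and 2.5024 in WT pools, higher in all 5 dystrophic pools. Another tendon marker, Tnmd, was at 12.7, 17.0 and 14.0 FPKM in mdx pools and 48.0 and 16.1 in dy2J pools, against 17.3, 13.9 and 15.6 in WT pools, so dy2J 1 alone stood apart in it. Fmod, also a tendon marker, was at 51.3 to 71.9 FPKM in mdx pools, against 59.3 to 80.7 in WT pools. Its dy2J pools stood at 125 and 48.4, so dy2J 1 alone lay above WT. The part of these cells in the matrix values was not tested. Wnt pathway genes had 5 higher and 6 lower of 21, and among secreted binders of Wnt proteins Sfrp2 (1.45 in mdx, 1.34 in dy2J) and Sfrp4 (0.87 in mdx, 1.83 in dy2J) rose while Frzb fell (-1.32 in mdx, -1.09 in dy2J).

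Vessel genes were lower. Of endothelial genes 1 of 20 tested members rose and 9 fell (median log2 change -0.33), and the models differed in 0 of them. Flt1, a receptor of the vascular growth factor VEGF, was listed at 5.05, 6.06 and 6.45 FPKM in mdx pools and 7.68 and 9.37 in dy2J pools, against 10.1, 15.4 and 18.2 in WT pools (-0.91 ± 0.17, adjusted p = 0.0037). Aqp1, a water channel of capillaries (-0.74 in mdx, -0.95 in dy2J), and Ptprb, a phosphatase of the vessel wall (-1.03 in mdx, -0.58 in dy2J), fell (adjusted p = 0.0034 to 0.006), and Sox18 was the 1 member that rose (0.41 in mdx, 0.90 in dy2J). The summed level of the 20 genes was 789 to 935 FPKM in mdx pools and 1006 to 1076 in dy2J pools, against 881 to 1142 in WT pools, so the groups overlapped in the sum. In the smooth muscle and pericyte list 1 higher and 6 lower of 13 were called. Abcc9 (-0.74 in mdx, -0.87 in dy2J) and Kcnj8 (-0.63 in mdx, -0.62 in dy2J), the paired subunits of a potassium channel of pericytes, fell, and Acta2, the smooth muscle actin that myofibroblasts and regenerating fibres also make, rose (1.54 in mdx, 1.16 in dy2J). Erythroid genes were all higher, 5 of 5 tested (median 0.97), with summed levels of 699 to 1070.2 FPKM in mdx pools and 673 to 687 in dy2J pools, against 339.9 to 469.5 in WT pools. The globin genes, Hba-a1 (1.10 in mdx, 0.83 in dy2J) and Hbb-bt (1.18 in mdx, 0.87 in dy2J) among them, have near-identical copies, and reads could be split between them.

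Adipocyte and Schwann cell genes moved unevenly. The adipocyte list had 9 higher and 2 lower of 20, with medians of 0.04 in mdx and 1.22 in dy2J, and the models differed in 9 of its members. Without dy2J 1 it had 4 higher and 1 lower, and without dy2J 2 it had 5 higher and 1 lower. Its summed level was 1758 to 2025 FPKM in mdx pools and 3224 to 3809 in dy2J pools, against 1851 to 2556 in WT pools. Cebpa, a transcription factor of fat cells and macrophages, rose (1.03 in mdx, 1.17 in dy2J), and Slc2a4, the insulin-responsive glucose transporter of muscle and fat, fell (-0.69 in mdx, -0.67 in dy2J). Schwann cell and myelin genes had 2 higher and 2 lower of 8, and without WT 1 or without dy2J 2 they had 1 higher and 1 lower. Ncmap, a myelin protein, fell (-1.01 in mdx, -0.89 in dy2J). Mast cell genes had 0 called of 5 tested (limma), and 0 of the 5 had an unadjusted p under 0.05.

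Genes of protein folding in the endoplasmic reticulum rose in good part. Of unfolded protein response genes 14 of 23 tested members rose and 0 fell (median log2 change 0.58), and the models differed in 0 of them. Sdf2l1, a partner of the chaperone BiP in the endoplasmic reticulum, was listed at 5.62, 9.51 and 4.37 FPKM in mdx pools and 7.92 and 6.71 in dy2J pools, against 2.02, 2.28 and 2.18 in WT pools (1.29 ± 0.19, adjusted p = 0.0013). Every dystrophic value exceeded every WT value, at much the same level in both models. Asns, which makes asparagine (1.28 in mdx, 1.44 in dy2J), and Fkbp11, a folding enzyme of secretory cells (0.96 in mdx, 1.14 in dy2J), rose. Of cytosolic heat shock genes and chaperones 4 higher and 3 lower of 20 were called, shares near the 22.7% and 14.4% of all genes. The models differed in 8 of the 20, with medians of -0.18 in mdx and 0.41 in dy2J, and the summed level was 2556 to 2982 FPKM in mdx pools and 4231 to 4988 in dy2J pools, against 3234 to 3333 in WT pools. Among the members called were Hspa2 (1.27 in mdx, 0.48 in dy2J) and Dnajb1 (0.46 in mdx, 0.75 in dy2J) higher and Unc45b, the myosin chaperone, lower (-0.63 in mdx, -0.47 in dy2J). Of p53 targets and apoptosis genes 9 higher and 4 lower of 24 were called. Cdkn1a, the cell cycle inhibitor p21, stood at 50.7, 63.6 and 66.5 FPKM in mdx pools and 49.2 and 42.4 in dy2J pools, against 5.39, 13.6 and 9.77 in WT pools (2.41 ± 0.23, adjusted p = 0.00022), and Eda2r, a death receptor of the TNF family, rose (0.88 in mdx, 1.21 in dy2J).

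Immediate early transcription factors had 13 higher and 0 lower of 20 (median 0.60), and without WT 1, or without dy2J 1, they had 8 higher. Runx1, a factor of denervated and regenerating fibres as well as of blood cells, stood at 9.43, 10.7 and 7.99 FPKM in mdx pools and 6.92 and 5.92 in dy2J pools, against 0.829, 2.05 and 1.54 in WT pools (1.85 ± 0.17, adjusted p = 0.00017). Junb (1.88 in mdx, 2.03 in dy2J) and Egr1 (1.27 in mdx, 1.64 in dy2J) rose too. Antioxidant and NRF2 target genes had 8 higher and 4 lower of 24, with Gpx8, a peroxidase of the endoplasmic reticulum (0.99 in mdx, 1.48 in dy2J), and Sod3, the secreted superoxide dismutase (0.99 in mdx, 1.15 in dy2J). Atrophy genes had 5 higher and 2 lower of 20, shares near those of all genes. Mt2, a metallothionein induced by metals and glucocorticoids, rose (3.19 in mdx, 1.76 in dy2J).

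Many growth and remodelling genes rose. Of cytoskeleton genes of non-muscle cells 26 of 29 tested members rose and 1 fell (median log2 change 0.97), and the one that fell was Synm, the muscle filament protein synemin (-0.82 in mdx, -0.67 in dy2J). Tubb6, a tubulin of regenerating fibres, was listed at 61.3, 76.4 and 56.6 FPKM in mdx pools and 41.8 and 38.6 in dy2J pools, against 11.4, 15.9 and 12.0 in WT pools (1.89 ± 0.13, adjusted p = 6.2e-05). Tmsb10, which binds actin monomers (2.82 in mdx, 1.53 in dy2J), and Tuba1a, an alpha-tubulin (1.54 in mdx, 1.35 in dy2J), rose. Annexins and membrane repair genes had 12 higher and 2 lower of 23, with Anxa1 (1.89 in mdx, 1.35 in dy2J) and Anxa2 (1.52 in mdx, 1.33 in dy2J), which bind damaged membrane. S100 proteins had 6 higher and 0 lower of 9, with S100a10, the partner of annexin A2 (1.02 in mdx, 1.05 in dy2J), and S100a6 (1.17 in mdx, 1.02 in dy2J) (adjusted p = 0.00029 to 0.00041). Of DNA replication and mitosis genes 21 of 32 tested members rose and 1 fell (median log2 change 0.75), and without WT 1 there were 14 higher and 0 lower. The 1 that fell was Aurka, a mitotic kinase (-0.32 in mdx, -0.52 in dy2J), whose call was lost without WT 1, 2 or 3, mdx 1, mdx 3 or dy2J 1 (adjusted p up to 0.18). Top2a, the topoisomerase of dividing cells, stood at 2.92, 9.04 and 4.55 FPKM in mdx pools and 2.23 and 2.55 in dy2J pools, against 0.521, 0.473 and 0.668 in WT pools (1.54 ± 0.25, adjusted p = 0.002), and Mcm6, of the replicative helicase, rose (1.14 in mdx, 1.05 in dy2J). The imprinted growth network had 10 higher and 1 lower of 14, the lower one being Nnat, and Mest, one of its paternally expressed genes, rose (1.63 in mdx, 1.43 in dy2J). Notch genes had 4 higher and 2 lower of 16 (median -0.03), shares near those of all genes, with Hes6, a factor of muscle differentiation, higher (1.51 in mdx, 0.84 in dy2J) and Dll4, a ligand of vessels, lower (-0.55 in mdx, -0.56 in dy2J).

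Cytosolic ribosomal protein genes showed small, even rises: 36 of 44 tested members rose and 1 fell (median log2 change 0.42), with medians of 0.54 in mdx and 0.31 in dy2J and 0 members differing between the models. Rpl3 was listed at 68.7, 97.5 and 80.2 FPKM in mdx pools and 60.5 and 50.7 in dy2J pools, against 26.5, 28.9 and 35.0 in WT pools (1.14 ± 0.14, adjusted p = 0.00058). The 1 member that fell was Rpl3l, the paralog of Rpl3 that striated muscle makes, at 185, 135 and 199 FPKM in mdx pools and 167 and 182 in dy2J pools, against 248, 241 and 260.4 in WT pools (-0.53 ± 0.13, adjusted p = 0.013). The pair thus moved in opposite directions in both models, although the Rpl3l call was lost without WT 3 or without dy2J 1 (adjusted p up to 0.052). Without WT 2 the count was 21 higher and 1 lower. Proteasome genes, which like those of the ribosome all cells use, had 2 higher and 0 lower of 28 (median 0.07), which is below the 22.7% of all genes called higher, and 5 were higher with quantile normalization. The 2 were Psmb5 (0.53 in mdx, 0.33 in dy2J) and Psma5 (0.48 in mdx, 0.13 in dy2J), and without WT 2 or without WT 3 neither was called (adjusted p up to 0.072 over the alternatives). Near-identical processed copies of ribosomal genes make each single value uncertain.

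Many genes that oxidize fuels fell, by modest amounts. Of fatty acid uptake and oxidation genes 0 of 30 tested members rose and 16 fell (median log2 change -0.41), against 14.4% called lower and a median of 0.04 over all genes. Cpt1b, the muscle enzyme that admits fatty acids to mitochondria, was listed at 113, 96.4 and 114 FPKM in mdx pools and 149 and 157 in dy2J pools, against 196, 207 and 232 in WT pools (-0.71 ± 0.101, adjusted p = 0.0011), and Ucp3, a mitochondrial carrier (-0.87 in mdx, -0.98 in dy2J), and Oxct1, of ketone use (-0.51 in mdx, -0.47 in dy2J), fell. Of TCA cycle genes 1 of 26 tested members rose and 14 fell (median log2 change -0.42). Idh3a, a catalytic subunit of the NAD-dependent isocitrate dehydrogenase, fell (-0.66 in mdx, -0.52 in dy2J), as did Suclg1 (-0.62 in mdx, -0.58 in dy2J) (adjusted p = 0.0078 to 0.008), and Idh2 was the 1 member that rose, through its dy2J pools (-0.08 in mdx, 1.16 in dy2J), and it was not called with equal weight per pool (adjusted p = 0.38). These counts rest on few pools: the fatty acid genes lower numbered 10, 10 and 7 without WT 1, WT 2 or WT 3. The TCA genes lower numbered 4, 5 and 2 without WT 1, WT 2 or WT 3, and 3 and 7 without dy2J 1 or dy2J 2. Complex I had 0 higher and 4 lower of 28 called and complexes III to V had 0 higher and 4 lower of 28, which is near the 14.4% of all genes called lower. Those lower numbered 8 and 7 with quantile normalization and 9 and 8 with median ratio rescaling, and 0 were called in either (limma) without any 1 of the WT pools or without dy2J 1, where 4 to 5 and 4 to 7 had an unadjusted p under 0.05. Without mdx 3 those numbers were 12 and 13 lower. Without mdx 2 complex I had 2 higher and 8 lower and complexes III to V had 7 lower. Without dy2J 2 the numbers lower were 1 and 0 (4 and 5 at an unadjusted p under 0.05). The number of respiratory genes called thus changed with single pools.

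Regulators of oxidative metabolism had 0 higher and 9 lower of 18 (5 lower without WT 3), and Rxrg, a nuclear receptor of muscle, stood at 14.0, 12.3 and 15.3 FPKM in mdx pools and 12.1 and 15.3 in dy2J pools, against 26.5, 21.7 and 22.5 in WT pools (-0.73 ± 0.12, adjusted p = 0.0017). Glycogen genes had 2 higher and 8 lower of 16 (median -0.54, and -0.28 with quantile normalization), with Ppp1r3a, which holds phosphatase 1 to glycogen in muscle (-0.87 in mdx, -1.21 in dy2J), and Phkb, a subunit of phosphorylase kinase (-0.64 in mdx, -0.91 in dy2J). Glycolysis genes were split, with 6 higher and 8 lower of 23, and without WT 1 or without dy2J 1 there were 5 higher and 4 lower. Pfkfb1 (-0.90 in mdx, -1.30 in dy2J) and Pfkfb3 (-0.88 in mdx, -1.52 in dy2J), which set the level of the activator of phosphofructokinase, fell, and Pgam1, the form of phosphoglycerate mutase found outside muscle fibres, rose (1.15 in mdx, 1.07 in dy2J). Creatine and purine genes were split likewise, with 4 higher and 7 lower of 17. Ckb, the creatine kinase of brain and immature muscle (2.01 in mdx, 1.34 in dy2J), and Ampd3, the AMP deaminase of red cells and atrophying muscle (0.89 in mdx, 1.17 in dy2J), rose while Ckm and Nt5c1a fell.

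Polyamine genes had 4 higher and 5 lower of 14, with Amd2, a near-identical copy of Amd1, also lower (-1.18 in mdx, -1.43 in dy2J), so reads of the pair could be split. Circadian genes had 1 higher and 9 lower of 19 (median -0.48). Hlf was listed at 0.816, 1.39 and 3.46 FPKM in mdx pools and 1.26 and 1.49 in dy2J pools, against 4.56, 9.67 and 6.10 in WT pools (-1.57 ± 0.29, adjusted p = 0.0035), and Ciart (-1.06 in mdx, -0.95 in dy2J) and Bhlhe41 (-0.76 in mdx, -1.27 in dy2J), repressors of the clock, fell. Npas2, which activates it, was the 1 member that rose (0.21 in mdx, 0.85 in dy2J). Its call was lost with quantile normalization, with equal weight per pool and without WT 1 or WT 3 (adjusted p = 0.072 to 0.14). The sources used here do not give the hour at which muscle was taken, and its part in these values was not tested.

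**Figure D3:**
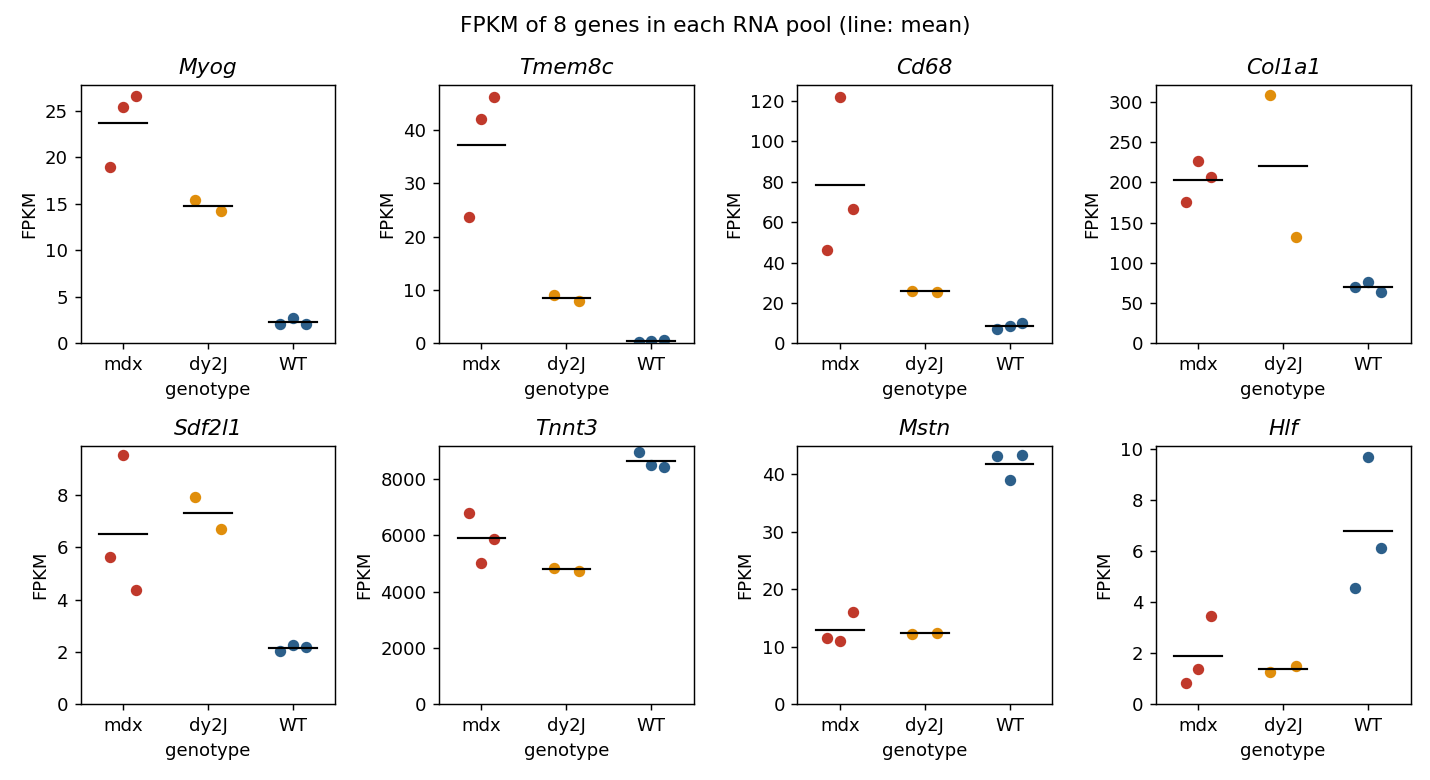
FPKM (y axis, from 0) of 8 genes in each RNA pool by genotype, with the mean of each genotype as a line. Myog, Tmem8c, Cd68, Col1a1 and Sdf2l1 are above the WT pools in all 5 dystrophic pools, and Tnnt3, Mstn and Hlf are below them.

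Within the shared change the models differed in size. Among 2447 rises with no overlap, the difference itself was called in 299: 239 were higher in mdx and 60 in dy2J. Among 1501 falls with no overlap it was called in 85, and 59 were lower in mdx and 26 in dy2J. These splits are as deposited. Over all genes the difference was called with dy2J higher in 407 genes and mdx higher in 581. With quantile normalization those numbers were 723 and 529, with median ratio rescaling 634 and 449, and without mdx 3 390 and 349. Which model is more often the higher one thus rests on the scaling. Genes of fusion and of embryonic fibres rose more in mdx, with differences (dy2J minus mdx, log2) of -1.96 for Tmem8c, -1.72 for Myl4 and -1.78 for Tnnt2 (adjusted p = 0.0027, 0.00054 and 0.0018). Of the slow troponins, Tnnc1 and Tnnt1 rose more in dy2J, at 2.48 and 2.38 (adjusted p = 0.011 and 0.0012). Igf2 and Lgals3 differed by -1.95 and -1.87, both higher in mdx (adjusted p = 0.00034 and 0.01). The 5 pooled calls with the largest difference were Myl2, Myh7, Myl3, Ucp1 and Mmp12. Ucp1, the uncoupling protein of brown fat, stood at 0.0658, 0.0430 and 0.0942 FPKM in mdx pools and 27.7 and 7.40 in dy2J pools, against 0.0218, 0.0251 and 0.0657 in WT pools, and Mmp12, the elastase of macrophages, at 18.2, 56.3 and 37.2 FPKM in mdx pools and 1.51 and 1.35 in dy2J pools, against 0.328, 0.272 and 0.450 in WT pools. With equal weight per pool Ucp1 was not called (adjusted p = 0.28). The Ucp1 values of mdx lay near those of WT, and the Mmp12 values of dy2J lay far nearer to WT than those of mdx. For Tnni1 (4.80 in mdx, 5.53 in dy2J), Ccl8 (2.94 in mdx, 2.76 in dy2J), Sdf2l1 (1.19 in mdx, 1.39 in dy2J), Rpl3 (1.41 in mdx, 0.87 in dy2J) and Mstn (-1.65 in mdx, -1.68 in dy2J) the difference was not called (adjusted p = 0.077, 0.61, 0.63, 0.086 and 0.9). A missed threshold does not show equal changes with 3 and 2 pools.

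**Figure D4:**
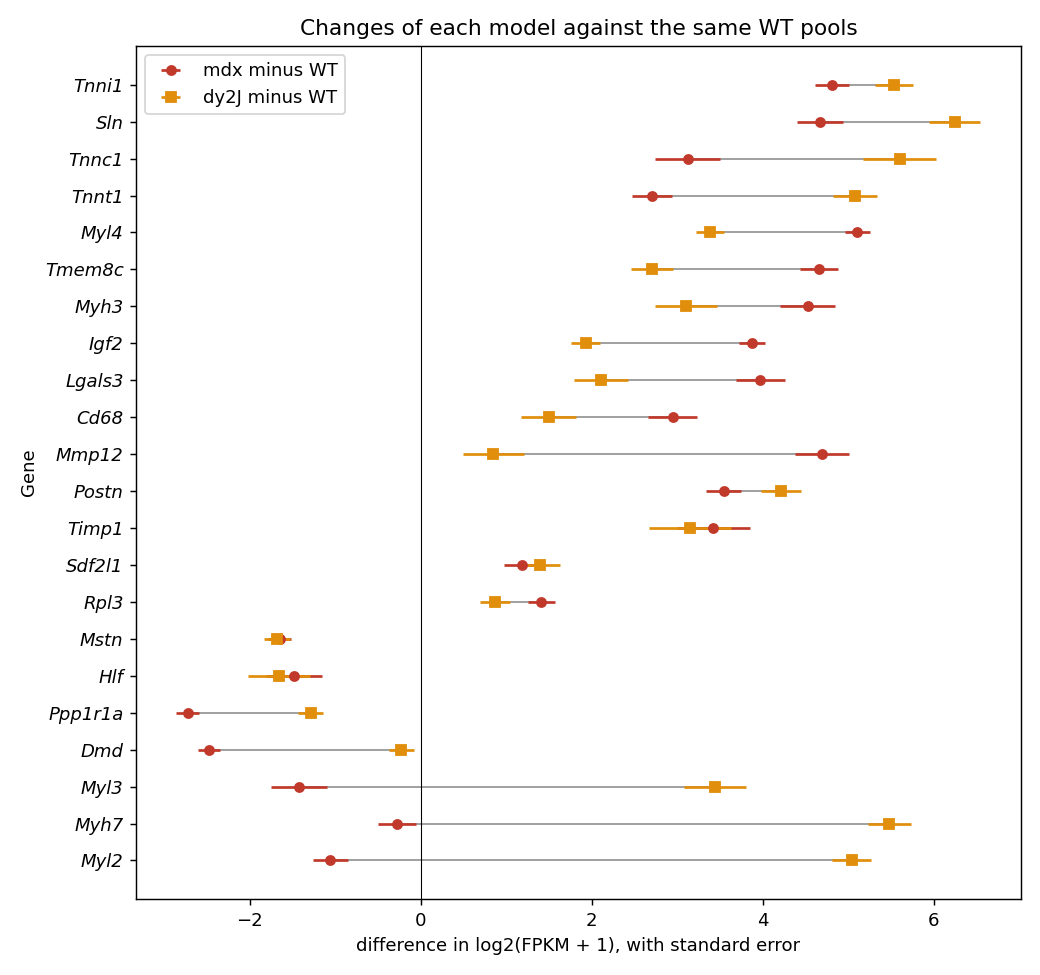
Log2 change (x axis) of mdx (circles) and dy2J (squares) against the same WT pools for 22 genes, with standard errors from the fit and a grey line joining the models. Most genes lie on 1 side of 0 in both models, with wide gaps for Tnnc1, Tnnt1, Tmem8c, Igf2, Lgals3, Mmp12 and Dmd, among others. Myl2, Myh7 and Myl3 have mdx below 0 and dy2J far above it.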

How the data were processed

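Total RNA of quadriceps muscle, pooled within genotype, gave 8 sequenced libraries, as the labels describe. Per the file headers, the deposited values are FPKM, in 1 table that covers 43628 genes. The build GRCm38, the aligner TopHat2 2.0.13, the trimmer Trim Galore 0.3.7 and bcl2fastq 2.15.0.4 are named in the submitters' processing notes, as are Cuffdiff, Cuffnorm and Cufflinks 2.2.1, without settings. Strandedness and the scaling between libraries are not given in the sources used here, so overlapping, antisense and near-identical genes are uncertain. The deposited FPKM hide depth: 19.4% to 21.6% of low values lay within 0.1 of whole multiples of the smallest step (chance 20%), so no reads were recovered, no count model was used and no interval for counting error is given.

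A gene was kept if 2 or more libraries reached 1 FPKM (12830; 413 of all genes reached it in exactly 2 libraries and 628 in exactly 1). Of the 12830, 111 with a failed 0 were left out: a 0 where another library of the genotype has at least 2 FPKM, or where the median of the nonzero values is at least 5. On the log2(FPKM + 1) scale, limma 3.58.1 (R 4.3.3) was fitted with 1 term per genotype, a mean-variance trend and 5 residual degrees of freedom. The contrast took a weight of 0.5 for each model minus WT. The fit was tested on simulated data.

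The comparison and the 63 gene lists (1276 symbols, 1163 tested) were chosen with earlier results of these data known, and lists are described by counts and medians without a set test. Named genes follow a rule: Dmd and Lama2; the 15 largest rises and 15 largest falls by the smaller of the 2 models' changes, among calls with no overlap and without predicted or numbered genes; the 3 such members with the largest change per list; and the 5 pooled calls with the largest difference between models. Single members that alone moved against or out of their list (Rpl3l, Sox18, Idh2, Npas2, Lcn2, Aurka, Gbp7, Cd59a, Ccl11, Col24a1, Efemp1, Col4a5 and Synm), and the cell markers Tnmd, Scx, Fmod, S100a8, Cd3e, Cd3g, Lck, Pax7, Myf5 and Calcr, were chosen after their values were seen. Symbols were those of the table and, for 8673 of 8987 entries without one, from GENCODE M21. Promoters came from RefSeq (GRCm38.p6) for 9175 of the 12418 tested genes with a symbol in the table. Plots used matplotlib 3.10.9 and pandas 2.3.3 under Python 3.11.15, with numpy 2.4.6. 1 gene that the rule names is not reported here.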

Additional observations from a re-analysis of the deposited data

Results flagged for a closer look

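The difference between the models themselves (dy2J minus mdx, log2) passed the test for 17 named genes with the higher value in dy2J and 26 with the higher value in mdx (limma, adjusted p = 5.6e-06 to 0.047, over the 12719 genes tested). The cell markers chosen after their values were seen are left out of these numbers. Those higher in dy2J were Myl2 (6.10), Myh7 (5.76), Myl3 (4.86), Ucp1 (3.86), Tnnc1 (2.48), Tnnt1 (2.38), Dmd (2.25), Sln (1.57), Ppp1r1a (1.44), Cilp (1.37), Idh2 (1.24), Sfrp4 (0.97), Mfap5 (0.97), Col8a1 (0.86), Fhl2 (0.85), Nos1 (0.74) and Cpt1b (0.50). Those higher in mdx were Mmp12 (-3.84), Lcn2 (-2.14), Tmem8c (-1.96), Igf2 (-1.95), Lgals3 (-1.87), Tnnt2 (-1.78), Chrng (-1.73), Myl4 (-1.72), Ctss (-1.71), C3ar1 (-1.61), Cd68 (-1.45), Myh3 (-1.42), Col24a1 (-1.36), Mmp3 (-1.34), Il7r (-1.32), Tmsb10 (-1.29), Cd59a (-1.24), Ms4a7 (-1.06), Lgmn (-0.96), Lama2 (-0.94), Nt5c1a (-0.87), C1qa (-0.79), Hspa2 (-0.79), Hes6 (-0.67), Tubb6 (-0.66) and Myog (-0.63). Dmd and Lama2, the genes that carry the mutations, are among them. No group holds 4 or more pools, so single pools were not tested for standing apart.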

How the results depend on the processing

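Under 19 alternatives the count of calls in both models moved by more than 1.5 times in 2, a mean of at least 5 FPKM and the loss of dy2J 1. Requiring a mean of at least 5 FPKM left 7320 genes to test, and gave 3013 calls in both models, against 4725 of 12719 in the main fit. The fall in that count thus goes with fewer genes tested. That setting gave 2972 calls in mdx, 613 between the models and 2517 with no overlap. With no expression minimum, 527 of 24448 genes tested differed between the models, against 988 of 12719 in the main fit. Leaving out 1 library gave 3127 to 5035 calls in both models, 3605 to 4765 in mdx, 640 to 3450 in dy2J, 156 to 1353 between the models and 2905 to 4417 with no overlap. Equal weight per pool gave 3575 calls in both models. That fit takes the 5 dystrophic pools as 1 group, leaves the single models out and counts their difference as spread. Median ratio rescaling gave 2638 higher and 2392 lower. Quantile normalization moved the median of all genes to -0.06, against 0.04 as deposited, and in mdx to -0.07, against 0.07, so small changes rest on the scaling. The median of the creatine and purine list was -0.20 with quantile normalization (0.0015 as deposited), and that of the Z-disc list was -0.03 with median ratio rescaling (0.02 as deposited). The replicate block gave 4123 calls in both models, 4423 in mdx and 1942 in dy2J. After the mean of each genotype was taken off, correlations of same-numbered pools were -0.18 to 0.157 and those of differently numbered pools -0.22 to 0.18. The deviations of the 2 dy2J pools mirror each other, and the groups are small. These values therefore cannot decide whether the numbers pair the samples. Of 173 called genes named, 151 kept their call under each alternative that tested them (143 of the 174 genes named were tested in all 19), 22 lost it under 1 or more and 0 reversed. Cell markers chosen after their values were seen are not among these genes. Lone pools left in a model were assumed to vary like the other groups. The cause of these shifts was not tested.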
